A study of Mus musculus with 8 samples.

Results

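The genes described here encode acute phase and plasma proteins: A2m, Hp, Lcn2, Saa3, Cp, Lbp, Apoa2, Apoe and Rbp4. They were chosen by symbol, with earlier results of these data known. They are 9 of the 15047 genes with an expression value in the pancreas of 8 male mice, and all 9 had a value in every mouse. RNA-Seq was run on 3 LFD and 3 HFD wild-type C57BL/6 mice, fed a low fat or a high fat diet (60% of calories from fat) for 10 weeks from 4 weeks of age, and on 2 ob/ob mice. The ob/ob mice are C57BL/6J animals that lack leptin and become obese on standard chow, and they too were 4 weeks old at the start. They therefore differ from the LFD mice in genotype and in diet, which cannot be told apart, and they stand for a genetic rather than a dietary obesity. By the study's description, the pancreata of all groups carried an orthotopic transplant of neoplastic mouse organoids (mT), so that each library mixes host pancreas with tumour, stroma and blood cells. No mouse without a transplant was analysed here.

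Acute phase proteins are plasma proteins whose levels move during infection, injury or tumour growth. The liver is their main source, where interleukin 6 acting through STAT3, and interleukin 1 acting through NF-kB and C/EBP factors, switch on their genes, and many are also made locally by epithelium, macrophages and fat. Serum amyloid A, haptoglobin and lipocalin 2 are known as circulating markers of inflammation in pancreatitis, pancreatic cancer and obesity, while the apolipoproteins and retinol binding protein carry lipids and vitamin A through the blood.

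Values are rlog values, a regularised log2 of gene counts corrected for library size by the authors, so that a difference of 1 is a doubling on the linear scale. They are not scaled by gene length, and levels are compared between mice and not between genes. Depth per mouse is unknown because counts were not used here. The medians over all genes lay between 7.09 and 7.25 in the 8 mice. Acinar markers, all 26 of which were measured, took 58.5% to 60.2% of the summed linear values in the LFD mice, 57.3%, 38.4% and 20.3% in HFD replicates 1, 2 and 3, and 55.0% and 22.9% in ob/ob replicates 1 and 2. HFD replicate 3 stood apart in a list of small intestinal epithelium genes written after the data were seen. All 14 measured genes were at their highest in that mouse, with a mean rlog value of 11.5. The mean was 5.49 to 5.91 in the LFD mice, 5.95 and 6.15 in HFD replicates 1 and 2, and 6.98 and 6.59 in ob/ob replicates 1 and 2. Without HFD replicate 3, the HFD minus LFD differences were 2.53 for Saa3, 1.59 for A2m, 1.47 for Hp, 1.24 for Lcn2, 0.83 for Cp, 0.52 for Lbp, 0.73 for Apoa2, 0.76 for Apoe and 0.28 for Rbp4. Of these, that of Rbp4 moved by more than 1.5 times, from 0.14. In bulk tissue, fewer cells of a type and less RNA per cell cannot be told apart.

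In the pancreas of HFD mice, Saa3, A2m and Hp were 5.68-fold, 3.15-fold and 2.96-fold the LFD level on the rlog scale, and every HFD mouse was above every LFD mouse for all 3 genes. In ob/ob pancreas the same 3 genes stood at 4.50-fold, 6.46-fold and 3.69-fold. Lcn2, Cp, Lbp, Apoa2 and Apoe had higher means in both obese groups with smaller or more scattered differences, and Rbp4 showed no clear difference. None of the 9 genes, and none of all 15047, had a limma adjusted p under 0.05 in any comparison, so each of these differences is given as a value and not as a called change. An unadjusted p under 0.05 was reached by 1728 genes with a higher and 1257 with a lower HFD mean relative to LFD. For ob/ob relative to LFD these numbers were 1751 and 1080, and for ob/ob relative to HFD they were 343 and 245.

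**Figure D1:**
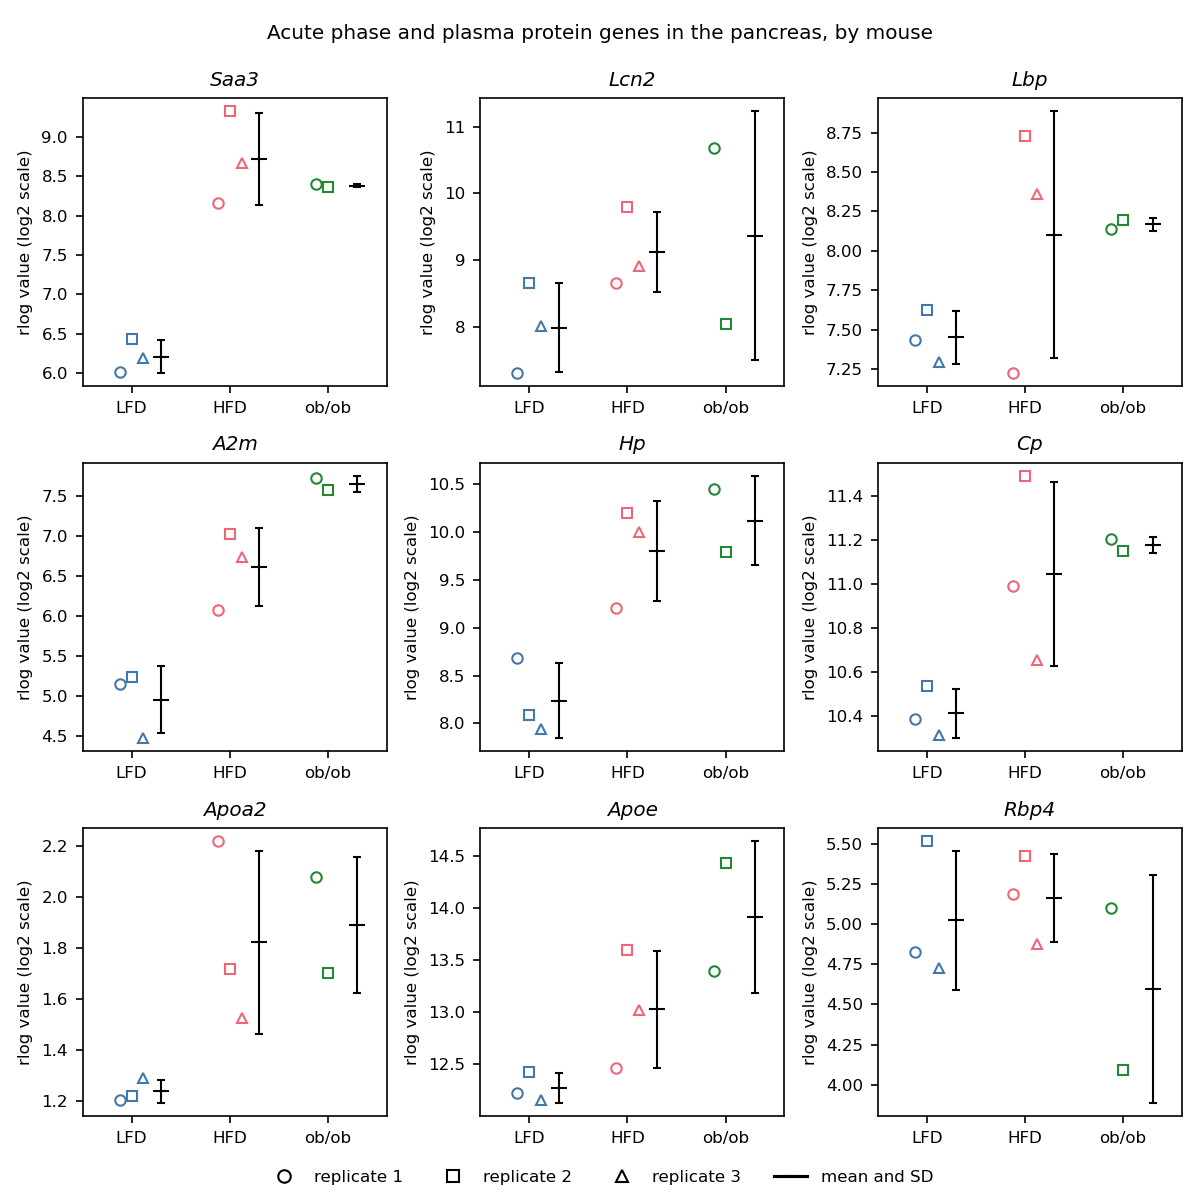
The rlog value (log2 scale, vertical axis, a separate range in each panel) of each of the 9 genes in each mouse, by group, with the replicate number as the marker shape and the mean and SD in black (LFD and HFD n = 3, ob/ob n = 2). For Saa3, A2m, Hp, Cp, Apoa2 and Apoe all 5 obese mice lie above the 3 LFD mice, Lcn2 and Lbp each have 1 obese mouse inside or below the LFD range, and Rbp4 overlaps throughout.

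Saa3 encodes serum amyloid A3, the member of the amyloid A family that is made mainly outside the liver, by macrophages and fat among others. It lies at chr7:46711998-46715700 on the minus strand of GRCm38. Because Saa3 had the smallest p of the 9 genes in HFD mice, and Apoe a wide range among the obese mice, the 250 bases before the start of each are printed here 5′ to 3′ from the RefSeq promoters of GRCm38.p6. They are chr7:46715677-46715926 for Saa3 and chr7:19699189-19699438 for Apoe, both on the minus strand. Capitals mark a match to an NF-kB-type motif. The RefSeq start of Saa3, at 46715676, lies inside the gene span given above, so its window overlaps that span. Apoe has 3 promoter entries, and the printed one has its start at 19699188.
Saa3: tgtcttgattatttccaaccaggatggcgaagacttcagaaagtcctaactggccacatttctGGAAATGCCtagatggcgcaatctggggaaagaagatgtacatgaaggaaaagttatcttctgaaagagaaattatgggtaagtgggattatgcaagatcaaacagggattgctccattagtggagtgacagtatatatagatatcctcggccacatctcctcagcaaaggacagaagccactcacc
Apoe: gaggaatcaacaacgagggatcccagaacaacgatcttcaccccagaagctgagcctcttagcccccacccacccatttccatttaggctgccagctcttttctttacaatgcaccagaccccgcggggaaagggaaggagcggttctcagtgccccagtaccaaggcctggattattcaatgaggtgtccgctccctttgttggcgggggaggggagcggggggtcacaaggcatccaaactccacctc
Promoters were found for 6 of the 9 genes, in 11 entries (Lcn2, Saa3, Cp, Apoa2, Apoe and Rbp4). A2m, Hp and Lbp had no entry. Each 250-base window was searched on both strands for the STAT3-type motif TTCNNNGAA, the C/EBP-type motif TTNNGNAAT and the NF-kB-type motif GGNNTTTCC, where N is any base. Saa3 held the NF-kB-type motif on the opposite strand, 187 to 179 bases before the start. Of the 2 Cp entries, 1 held it 146 to 138 bases before its own start. The start of that entry, at 19957249, lies inside the gene span given for Cp below. The other Cp entry, with its start at 19957054, held no match. No other match was found in the windows of the 6 genes. Over all 32851 promoters of the table, 7.02% held the STAT3-type, 10.2% the C/EBP-type and 4.93% the NF-kB-type motif, and 20.3% held any of the 3. A match is a string of letters and was not tested as a binding site.

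Saa3 was measured at 6.01, 6.43 and 6.19 in the LFD mice, at 8.16, 9.33 and 8.67 in the HFD mice, and at 8.40 and 8.37 in the ob/ob mice. All 5 obese mice were far above the LFD range, and the ob/ob mice lay inside the HFD range. HFD exceeded LFD by 2.51 (SE 0.29), with an unadjusted p of 1.57e-05, the second smallest of all 15047 genes, and a limma adjusted p of 0.118. The ob/ob mice exceeded LFD by 2.17 (SE 0.32, limma adjusted p = 0.137). Between ob/ob and HFD the difference was -0.34, with a 95% interval from -1.07 to 0.40. Without HFD replicate 3 the HFD difference was 2.53 (limma adjusted p = 0.278). The other serum amyloid A genes, Saa1, Saa2 and Saa4, were not analysed here.

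Lcn2 (chr2:32384633-32388252, minus strand) encodes lipocalin 2, an iron-siderophore binding protein stored in neutrophil granules and secreted by injured epithelium. The LFD values were 7.31, 8.65 and 8.02. HFD mice had 8.66, 9.80 and 8.92, all above the LFD mice, although the lowest HFD mouse and the highest LFD mouse nearly coincided. The ob/ob mice differed most from each other for this gene, at 10.69 and 8.05, so that ob/ob replicate 1 was the highest of all 8 mice and replicate 2 lay inside the LFD range. HFD exceeded LFD by 1.13 (SE 0.64, limma adjusted p = 0.343) and ob/ob exceeded LFD by 1.38 (SE 0.72, limma adjusted p = 0.318). The ob/ob difference rested on ob/ob replicate 1 and was 0.06 without it.

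Lbp (chr2:158306493-158332852, plus strand) encodes the protein that hands bacterial lipopolysaccharide to CD14 and TLR4. LFD mice had 7.44, 7.63 and 7.29 and ob/ob mice 8.14 and 8.20, so these groups did not overlap. In HFD mice it was 7.22, 8.73 and 8.36, with HFD replicate 1 below every LFD mouse. The differences from LFD were 0.65 (SE 0.35, limma adjusted p = 0.320) in HFD and 0.72 (SE 0.39, limma adjusted p = 0.330) in ob/ob mice. Without HFD replicate 1 the HFD difference was 1.09 (limma adjusted p = 0.0168, in a fit where 18.7% of all genes passed 0.05), and without HFD replicate 2 it was 0.34.

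The large plasma binding proteins followed a more even pattern. A2m (chr6:121635376-121679227, plus strand) encodes alpha-2-macroglobulin, a trap for proteases that is cleared through LRP1. Its values were 5.16, 5.24 and 4.47 in LFD, 6.08, 7.03 and 6.74 in HFD, and 7.72 and 7.58 in ob/ob mice. A2m was the only one of the 9 genes for which the 3 groups did not overlap at all, in the order LFD, HFD, ob/ob. The HFD mice exceeded LFD by 1.66 (SE 0.32, limma adjusted p = 0.175) and the ob/ob mice by 2.69 (SE 0.36, limma adjusted p = 0.135). The unadjusted p of the ob/ob difference, 4.80e-05, was the second smallest of all genes. The ob/ob mice also exceeded the HFD mice by 1.03 (SE 0.36), with an unadjusted p of 0.0191 and a limma adjusted p of 1.00.

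Hp (chr8:109575128-109579172, minus strand) encodes haptoglobin, which binds free haemoglobin and delivers it to CD163 on macrophages. The LFD mice had 8.68, 8.09 and 7.94, the HFD mice 9.20, 10.20 and 10.00, and the ob/ob mice 10.45 and 9.79. Each obese mouse was above each LFD mouse, and the ob/ob mice fell within or just above the HFD range. Hp exceeded the LFD mean by 1.57 in HFD (SE 0.32, limma adjusted p = 0.175) and by 1.88 in ob/ob mice (SE 0.36, limma adjusted p = 0.139).

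Cp (chr3:19957054-20009145, plus strand) encodes ceruloplasmin, the copper ferroxidase of plasma. The values were 10.39, 10.54 and 10.31 in LFD, 10.99, 11.49 and 10.66 in HFD, and 11.20 and 11.15 in ob/ob mice. The groups did not overlap with LFD, but the steps were small, at 0.63 in HFD (SE 0.22, limma adjusted p = 0.204) and 0.76 in ob/ob mice (SE 0.25, limma adjusted p = 0.210). HFD replicate 3 was the lowest obese mouse for Cp and HFD replicate 2 the highest. The HFD difference was 0.83 without HFD replicate 3 and 0.41 without HFD replicate 2, with an unadjusted limma p of 0.0680 in the latter fit. That p was also above 0.05 without LFD replicate 1, at 0.0527, and without LFD replicate 3, at 0.0625.

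**Figure D2:**
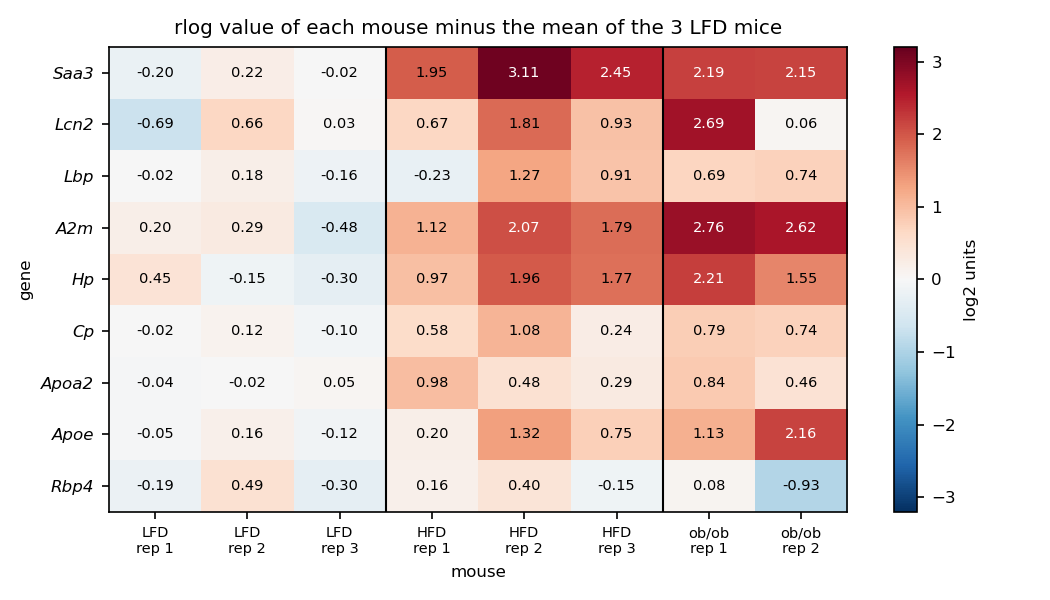
Each cell is the rlog value of a mouse (columns, by group and replicate) minus the mean of the 3 LFD mice for the same gene (rows), in log2 units, red where higher and blue where lower. Saa3, A2m and Hp are at least 0.97 above the LFD mean in all 5 obese mice, and the lowest value of the plot is that of Rbp4 in ob/ob replicate 2, at -0.93.

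Of the lipid and vitamin carriers, Apoe had the widest range in obese mice. Apoe (chr7:19696109-19699188, minus strand) encodes apolipoprotein E, a ligand of the LDL receptor family made by hepatocytes and abundantly by macrophages. It stood at 12.22, 12.43 and 12.15 in LFD, 12.47, 13.59 and 13.02 in HFD, and 13.40 and 14.43 in ob/ob mice. The lowest HFD mouse was close to the highest LFD mouse, while ob/ob replicate 2 was the highest of all. The difference from LFD was 0.76 in HFD (SE 0.36, limma adjusted p = 0.280) and 1.64 in ob/ob mice (SE 0.40, limma adjusted p = 0.179). The HFD difference was 0.47 without HFD replicate 2. For ob/ob against HFD it was 0.88, with a 95% interval from -0.04 to 1.80 and overlapping groups, and it ranged from 0.37 to 1.40 over the mice left out, lowest without ob/ob replicate 2 and highest without ob/ob replicate 1.

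Apoa2 (chr1:171225054-171226379, plus strand) encodes apolipoprotein A-II, a structural protein of high density lipoprotein. It was at the low end of the table, at 1.20, 1.22 and 1.29 in LFD, 2.22, 1.72 and 1.53 in HFD and 2.08 and 1.70 in ob/ob mice, where the lowest value of any gene in a mouse was between 0.466 and 0.933. All 5 obese mice were above the LFD mice, with differences of 0.58 (SE 0.26, limma adjusted p = 0.251) in HFD and 0.65 (SE 0.29, limma adjusted p = 0.266) in ob/ob mice. The rlog transformation shrinks differences of genes with few reads. Apoa2 was also the only one of the 9 genes for which HFD replicate 1 was the highest HFD mouse, and without that mouse the HFD difference was 0.39, with an unadjusted p of 0.177.

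Rbp4 (chr19:38116629-38125281, minus strand) encodes the plasma carrier of retinol, which circulates bound to transthyretin and is known as an adipokine. The values were 4.83, 5.52 and 4.72 in LFD, 5.19, 5.42 and 4.88 in HFD, and 5.10 and 4.09 in ob/ob mice. The 3 groups overlapped, except that ob/ob replicate 2 was below all other mice. HFD minus LFD was 0.14, with a 95% interval from -0.68 to 0.96, and ob/ob minus LFD was -0.43, with an interval from -1.34 to 0.49. These intervals leave room for a difference of either sign.

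**Figure D3:**
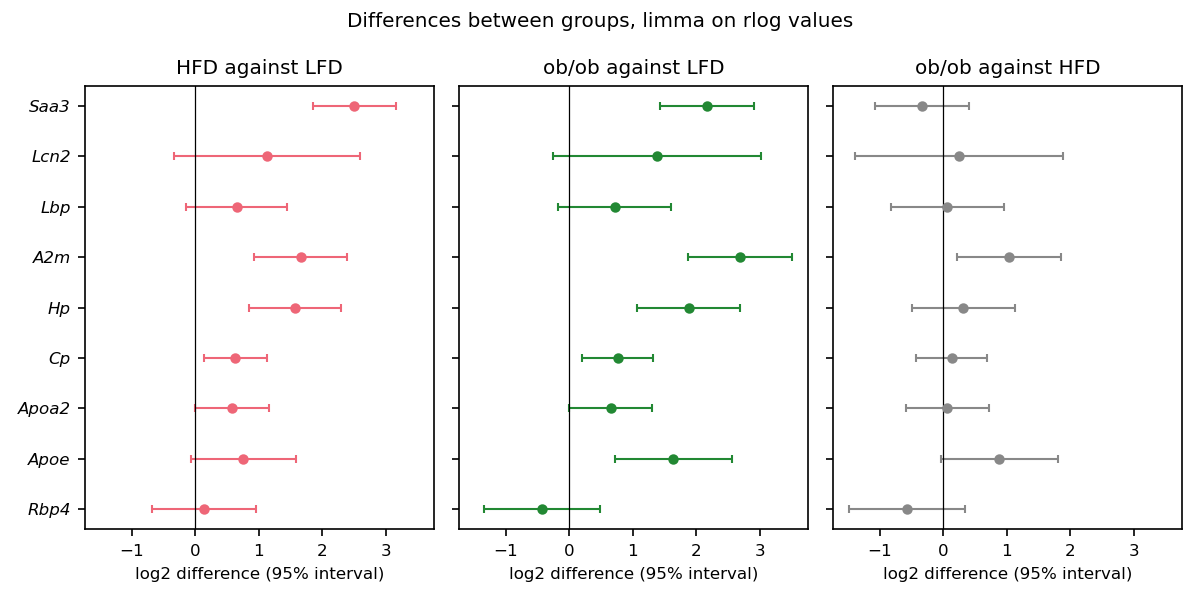
Log2 difference (horizontal axis) with its 95% interval from limma for the 9 genes in HFD against LFD, ob/ob against LFD, and ob/ob against HFD. In both comparisons with LFD the intervals of Saa3, A2m and Hp start at 0.84 or higher, and in ob/ob against HFD the interval of A2m alone, from 0.22 to 1.85, leaves out 0.

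The 9 genes were chosen with earlier results of these data known, so the counts below describe them and are no test against all genes. Counted together, 9 of the 9 genes had a higher mean in HFD than in LFD. None passed an adjusted p of 0.05, against 0% of all genes, and 5 had an unadjusted p under 0.05 in the higher direction (Saa3, A2m, Hp, Cp and Apoa2), against 11.5% of all genes. For 7 genes every HFD mouse was above every LFD mouse, which held for 12.9% of all genes. The median difference of the 9 genes was 0.76, and that of all genes 0.03. In ob/ob against LFD, 8 of 9 had a higher mean, 0 passed the adjusted threshold (0% of all genes), 6 had an unadjusted p under 0.05 in the higher direction (11.6% of all genes) and 7 did not overlap with LFD on the higher side (24.1% of all genes). The median was 1.38, against 0.04 over all genes. The number at an unadjusted p under 0.05 in HFD fell to 3 without LFD replicate 1, LFD replicate 3 or HFD replicate 2. Without HFD replicate 1, 4 genes passed the adjusted threshold in HFD (A2m, Hp, Saa3 and Lbp) and 3 in ob/ob mice (A2m, Hp and Saa3), in fits where 18.7% and 0.591% of all genes passed. These comparisons share the 3 LFD mice and are not independent of each other.

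Against HFD, ob/ob mice had a higher mean for 7 of the 9 genes and a lower mean for Saa3 and Rbp4. None passed the adjusted threshold (0% of all genes). A2m alone had an unadjusted p under 0.05, against 2.28% of all genes in that direction, and A2m alone did not overlap, against 7.92% of all genes. The unadjusted p of A2m was 0.0827 without ob/ob replicate 1, where Apoe (higher) and Rbp4 (lower) were under 0.05 instead, and 0.0521 without ob/ob replicate 2, where Lcn2 was. It was 0.0816 with array weights, where Saa3 (lower) was under 0.05. Without HFD replicate 2, A2m and Apoe were both under 0.05. The median difference was 0.13. Group means ran in the order LFD, HFD, ob/ob for the 7 genes, in the order LFD, ob/ob, HFD for Saa3, and in the order ob/ob, LFD, HFD for Rbp4, and apart from A2m the HFD and ob/ob mice overlapped for every gene. For Lcn2 and Rbp4 the ob/ob and LFD mice overlapped too, as did the HFD and LFD mice for Lbp and Rbp4.

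Seen by mouse, HFD replicates 1, 2 and 3 exceeded the highest LFD value for 7, 8 and 8 of the 9 genes, and ob/ob replicates 1 and 2 for 8 and 7. HFD replicate 2 was the highest HFD mouse for 8 genes. HFD replicate 3, the mouse highest in the small intestinal genes, was the highest HFD mouse for none. Without it, 5 genes still had an unadjusted p under 0.05 in HFD against LFD. HFD replicate 1 and ob/ob replicate 1, whose acinar shares were 57.3% and 55.0%, were above every LFD mouse for Saa3, A2m, Hp, Lcn2, Cp, Apoa2 and Apoe. In a fit without the 3 mice lowest in acinar genes, chosen after seeing the data, Saa3, A2m and Hp exceeded LFD by 1.95, 1.12 and 0.97 in the remaining HFD mouse and by 2.19, 2.76 and 2.21 in the remaining ob/ob mouse. For Apoe and Lbp the HFD differences were 0.20 and -0.23 in that fit, and 0.33 and 0.26 with the acinar mean as a covariate. With that covariate they were 2.35 for Saa3, 1.45 for A2m and 1.43 for Hp, each lower than without it. They were 1.69 for Lcn2, 0.89 for Apoa2, 0.74 for Cp and 0.46 for Rbp4, each higher than without it.

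Marker levels of other cell types also differed between the groups. Of 14 macrophage genes, 9 in HFD and 14 in ob/ob mice did not overlap with LFD on the higher side, against 12.9% and 24.1% of all genes, and the log2 of their summed values was 13.4 to 13.9 in LFD, 14.2 to 15.2 in HFD and 14.8 to 15.7 in ob/ob mice. For 12 fibroblast genes the sum was 13.6 to 13.9, 14.3 to 15.5 and 14.8 to 15.9. The 9 measured of 12 neutrophil genes summed to 9.01 to 10.0, 10.4 to 11.8 and 9.89 to 10.1. A sum is led by the most abundant genes of a list. The mean rlog value of the neutrophil list was 5.21 to 5.80 in LFD, 6.41 to 7.76 in HFD and 6.11 to 6.45 in ob/ob mice. By that mean every obese mouse was above every LFD mouse. Duct and tumour epithelium summed to 15.6 to 15.9, 15.3 to 15.7 and 14.8 to 15.4. The mean rlog value of that list was 9.44 to 9.84 in LFD, 9.73 to 10.3 in HFD and 8.94 to 9.93 in ob/ob mice. Of its 12 genes, 8 had a higher and 4 a lower mean in HFD than in LFD. Adipocytes summed to 11.5 to 11.9, 11.6 to 11.8 and 11.2 to 12.3. Islet cells summed to 13.3 to 14.3, 12.9 to 13.7 and 14.3 to 15.4, mesothelium to 10.6 to 10.9, 10.8 to 12.1 and 10.9 in both ob/ob mice, and red blood cells to 12.9 to 13.9, 12.5 to 14.8 and 11.8 to 12.8. The part of these cells in the values of the 9 genes was not tested.

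Hepatocytes are the main source of most of these proteins in the body, and 7 of 16 hepatocyte markers were measured. Alb, which encodes albumin, was 5.51, 5.72 and 5.89 in LFD, 6.20, 5.01 and 3.62 in HFD, and 6.18 and 4.10 in ob/ob mice. Its 3 lowest values were those of the mice lowest in acinar genes, and of the obese mice only HFD replicate 1 and ob/ob replicate 1 were above the LFD range. Summed hepatocyte values were 11.8 to 11.9 in LFD and 11.4 to 11.6 in ob/ob mice, and 11.0 to 15.1 in HFD mice. The highest sum was that of HFD replicate 3, with Apob at 15.06, a gene that is also in the small intestinal list. The mean rlog value of the hepatocyte list was 7.04 to 7.19 in LFD, 6.66 to 7.03 in HFD and 6.51 to 7.59 in ob/ob mice. Of its 7 measured genes, 2 had a higher and 5 a lower mean in HFD than in LFD.

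**Figure D4:**
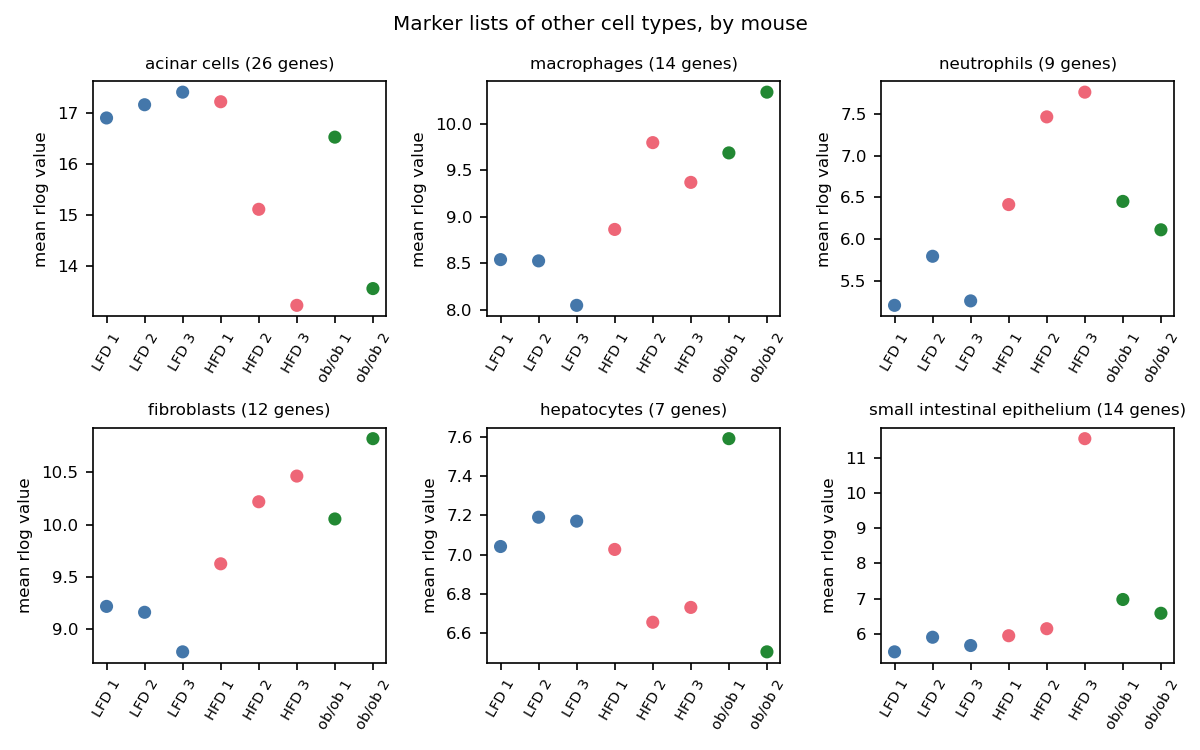
Mean rlog value (vertical axis, a separate range in each panel) of the measured genes of 6 marker lists in each mouse, coloured by group (LFD blue, HFD red, ob/ob green). Macrophage, neutrophil and fibroblast lists are higher in all 5 obese mice than in the LFD mice. The acinar list is low in HFD replicates 2 and 3 and ob/ob replicate 2. The small intestinal list stands out in HFD replicate 3, at 11.5, and the next highest are ob/ob replicates 1 and 2, at 6.98 and 6.59.

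Other acute phase genes had differences of both signs. Of 37 listed, 22 were measured, and their median difference was 0.24 in HFD and 0.06 in ob/ob mice. At an unadjusted p under 0.05, 3 were higher (Il1rn, Serpina3n and Cfb) and 3 lower (Itih4, Mt2 and Ttr) in HFD, and 4 were higher (Serpina3n, Serpina3m, Cfb and Il1rn) and 2 lower (Itih4 and Mt2) in ob/ob mice. Over all genes the shares were 11.5% higher and 8.35% lower in HFD, and 11.6% and 7.18% in ob/ob mice, and the counts of the list are not far from them. None had an adjusted p under 0.05. Il1rn, the interleukin 1 receptor antagonist, was 6.28, 6.54 and 5.58 in LFD, 7.34, 9.03 and 8.75 in HFD, and 7.08 and 7.65 in ob/ob mice, a difference of 2.24 in HFD (SE 0.45, limma adjusted p = 0.175). Itih4, an inter-alpha-trypsin inhibitor heavy chain, was lower than LFD by 2.44 in HFD and by 2.19 in ob/ob mice, and Mt2, a metallothionein, by 1.72 and 1.79. Ttr, which encodes the transthyretin partner of RBP4, lay below the LFD range in HFD mice, at 8.43, 7.48 and 6.55 against 8.68, 9.13 and 8.89, and overlapped with it in ob/ob mice, at 9.32 and 7.98.

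**Figure D5:**
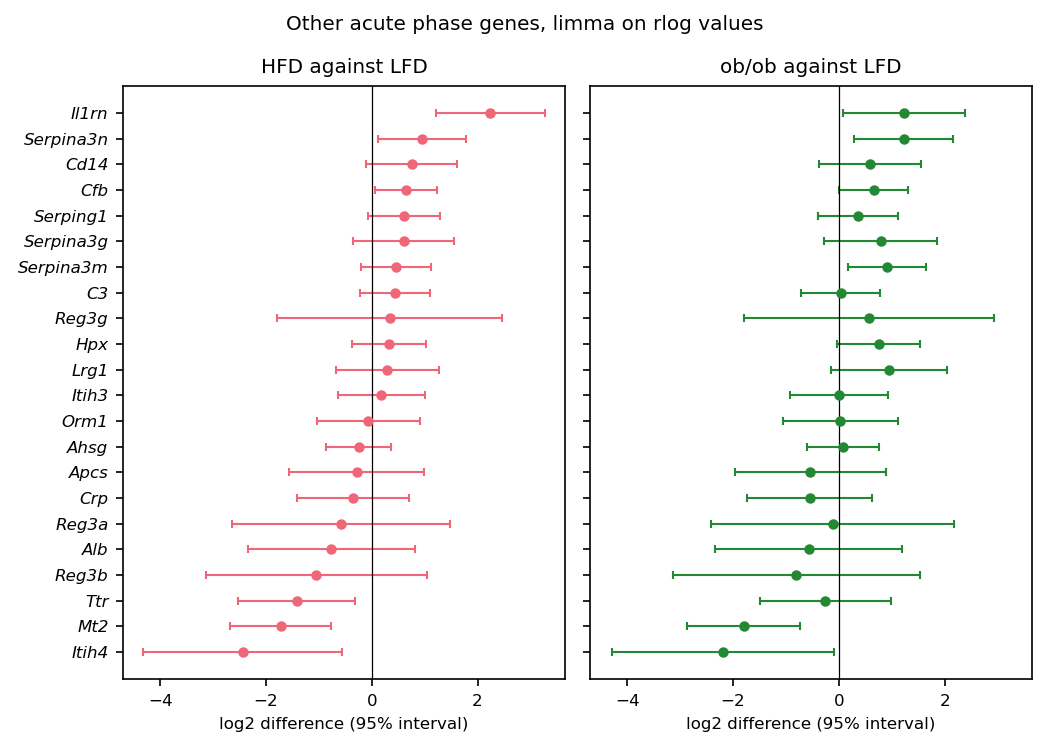
Log2 difference (horizontal axis) with its 95% interval from limma for the 22 measured genes of the list of other acute phase genes, in HFD against LFD and in ob/ob against LFD, ordered by the HFD difference. Il1rn is at the top with 2.24 and Itih4 at the bottom with -2.44 in HFD, and the list spreads to both sides of 0.

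Upstream of these genes, all 28 listed regulators were measured. In HFD, 8 were higher and 2 lower at an unadjusted p under 0.05, and in ob/ob mice 5 were higher and 2 lower, with 0 at an adjusted p under 0.05. The shares over all genes were 11.5% and 8.35% in HFD, and 11.6% and 7.18% in ob/ob mice. Il1b, a cytokine that drives the acute phase response, was 6.23, 7.50 and 6.89 in LFD, 7.84, 9.55 and 9.09 in HFD, and 7.96 and 8.10 in ob/ob mice, a difference of 1.95 (SE 0.46, limma adjusted p = 0.176) in HFD. Il6 was low in all mice, at 2.45, 2.91 and 2.99 in LFD and 4.59 and 3.94 in ob/ob mice, a difference of 1.48 (SE 0.43, limma adjusted p = 0.200). The transcription factor Stat3 differed from LFD by -0.10 in HFD and -0.13 in ob/ob mice, and its feedback inhibitor Socs3 by 0.67 and 0.98. Cebpb differed by 0.43 and 0.45, Cebpd by 0.52 and 0.68, and Nfkbiz by 0.43 and 0.19. Of the receptor subunits and factors with lower means, Lifr was 1.48 below LFD in HFD, Il22ra1 was 1.84 below LFD in ob/ob mice, and Hnf4a was 1.23 below HFD in ob/ob mice. Il11, another cytokine of this family, was 0.98 lower in ob/ob than in HFD mice.

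Downstream, the 28 receptors and partners included 7 higher and 2 lower genes in HFD and 9 higher and 2 lower in ob/ob mice at an unadjusted p under 0.05, beside the same shares over all genes, and 0 at an adjusted p under 0.05. Tlr4, which receives the lipopolysaccharide carried by LBP, was 8.13, 7.61 and 7.67 in LFD, 7.97, 8.95 and 8.58 in HFD, and 8.53 and 9.09 in ob/ob mice, differences of 0.70 and 1.00. Fpr2, a receptor for serum amyloid A, exceeded LFD by 1.62 in HFD and by 1.49 in ob/ob mice, and no obese mouse overlapped with LFD. Lrp1, the receptor of the A2m protein, differed by 0.74 and 1.13. Cd163, the haptoglobin-haemoglobin receptor, differed by -0.11 in HFD and 0.48 in ob/ob mice. Slc22a17, a receptor for lipocalin 2, differed by -0.50 and 0.11. Stra6, which takes up retinol from RBP4, was 3.52, 5.23 and 4.13 in LFD and 5.16, 6.91 and 6.57 in HFD, a difference of 1.92 with overlapping groups. Rbp2 differed by 3.14 in HFD and 2.51 in ob/ob mice, but its HFD value rested on HFD replicate 3, at 12.47 against 3.89 and 3.75 in the other HFD mice.

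The lists of related genes hold paralogs together with some partners and receptors. Of the 9 measured genes of the apolipoprotein list, which includes the receptor gene Apobr, 0 had an unadjusted p under 0.05 against LFD in either group. Apoa1 and Apob had the largest differences in HFD, at 3.26 and 3.14, and both rested on HFD replicate 3. Apoa1 was at 13.46 there and at 3.77 and 3.70 in the other HFD mice, and Apob at 15.06 there and at 6.89 and 8.18 in the others. In ob/ob mice Apoa1 was 6.51 and 6.29, against 3.60, 3.66 and 3.89 in LFD. Apob was 9.01 and 8.75 in ob/ob mice, against 6.43, 7.52 and 6.78 in LFD. Clu was 0.75 lower in ob/ob than in HFD mice with overlapping groups. Of the 5 measured genes of the A2m list, C5ar1, the receptor for the complement fragment C5a, exceeded LFD by 1.36 in HFD and 1.81 in ob/ob mice, Cd109 differed by 0.57 and 1.41, and Pzp, the closest relative of A2m in the list, differed by -0.22 and -0.90. Mug1 was not analysed here.

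Among the lipocalins and fatty acid or retinol binding proteins, Fabp5 differed from LFD by 0.86 and Rbp7 by -1.22 in ob/ob mice, both at an unadjusted p under 0.05. Apod was 1.01 lower in HFD than in LFD with overlapping groups. Of 15 measured iron and copper genes, 3 were higher in each obese group and none lower at an unadjusted p under 0.05, where 11.5% of all genes were higher in HFD and 11.6% in ob/ob mice. Heph, a ferroxidase related to ceruloplasmin, exceeded LFD by 1.14 in HFD, and the neutrophil lactoferrin gene Ltf by 0.99. In ob/ob mice Hmox1, which degrades haem, exceeded LFD by 1.43 and Slc11a1, a metal transporter of phagocytes, by 1.45. Ltf was 1.87 lower in ob/ob than in HFD mice (SE 0.43, limma adjusted p = 0.883), without overlap.

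As a description of likeness, the genes with the highest Pearson r to each of the 9 over the 8 mice were sought among all genes, where differences between the 3 groups enter r. A2m was most like Thumpd1, Apobec1 and the macrophage marker Adgre1 (r from 0.98 to 0.99). For Apoe they included the chemokine gene Ccl12 and Inpp5k (0.99 each), and for Saa3 they were the fibroblast proteoglycan gene Lum, Tmsb4x and the neutrophil collagenase gene Mmp8 (0.97 each). Hp was most like Tfpi2, Col8a2 and Gpx7 (0.97 each), Cp like Tmem176b, the chemokine gene Ccl8 and Yju2 (0.96 to 0.97), and Lbp like Hhex, H2afy and Tor4a (0.97 to 0.98). Apoa2 was most like Il10, Bmpr1a and Apex2 (0.95 to 0.97). An r above 0.9 was reached by 531 genes for Apoe, 330 for Lbp, 270 for A2m and 234 for Saa3. It was reached by 127 genes for Hp, 72 for Cp and 14 for Apoa2. The genes named for these members are therefore the top of longer lists and not particular partners. Lcn2 and Rbp4 had the fewest close neighbours, with 6 and 3 genes above an r of 0.9, led by Slc29a4, Hrct1 and Dio3os for Lcn2 (0.92 to 0.94) and by Grrp1, Arhgap8 and Als2cl for Rbp4 (0.90 to 0.94). Among the 9 genes themselves, A2m and Hp were the closest pair (r = 0.94), followed by Hp and Saa3 (r = 0.91), and Rbp4 had an r between -0.41 and 0.48 with the others.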

How the data were processed

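RNA-Seq of pancreas from 3 LFD, 3 HFD and 2 ob/ob mice was used, grouped by the labels; the mT transplant is stated in the paper and not in the labels. The authors checked reads with FastQC, quantified Gencode M18 transcripts (GRCm38.p6) with Salmon 0.11.3, summed them to genes with tximport and deposited rlog values from DESeq2 1.22.2, which are on a log2 scale. The gene filter is not given in the sources used here. Depth is unknown, so no counting error was computed.

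Group means were fitted to the 15047 genes of all 8 mice by limma 3.58.1 (R 4.3.3) with a variance trend, with Benjamini-Hochberg adjustment over all of them and a threshold of 0.05. This replaced the count test of the study, because the values are not counts. Replicates are different animals. The 9 genes and all lists were chosen with earlier results of these data known, and no list was tested as a whole. Besides the 9 genes, the text names the 2 genes with the largest difference from each list in each comparison, a set of paralogs, receptors and regulators, the 3 genes most like each member, and, chosen after their values were seen, the other genes listed beside a count. Some genes that this rule selects are not reported here. Gene positions are those of Gencode M21 on GRCm38, and promoters those of RefSeq, read with Python 3.11.15, pandas 2.3.3 and matplotlib 3.10.9.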

Additional observations from a re-analysis of the deposited data

How the results depend on the processing

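The 27 differences of the 9 genes were recomputed under 17 settings, giving 453 values, of which 414 kept their direction and their side of the adjusted threshold, 21 passed it and 18 changed sign. A mean rlog value of at least 5 left out Apoa2 and Rbp4. With array weights, which gave HFD replicate 2 a weight of 9.36 and HFD replicate 1 one of 0.273, 8 genes had an adjusted and 8 an unadjusted p under 0.05 in HFD against LFD, as did 44.2% and 52.7% of all genes. With only the groups compared, 2 genes passed in ob/ob against LFD (A2m and Saa3, limma adjusted p = 0.0499), as did 38 of all 15047 genes. Without the 3 mice lowest in acinar genes, chosen after seeing the data, 4 passed in ob/ob against LFD (A2m, Hp, Lcn2 and Saa3), as did 44 of all genes, and 5 had an unadjusted p under 0.05 in ob/ob against HFD, as did 7.22% of all genes. That fit has 1 HFD and 1 ob/ob mouse, each assumed to vary like the LFD mice. The study describes no pairing of mice by replicate number. Deviations from the group means correlated from -0.28 to 0.59 between the same numbers, and from -0.59 to 0.44 between unlike numbers. The 2 ob/ob mice deviate from their mean by equal and opposite amounts, so these correlations cannot settle whether the numbers pair mice. With the replicate block, as with the acinar mean as a covariate, 2 of the 9 genes (A2m and Apoe) had an unadjusted p under 0.05 in ob/ob against HFD, as did 3.1% and 7.92% of all genes, and none of the 9 crossed the adjusted threshold.

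Leaving out each mouse in turn, the number of genes with an adjusted p under 0.05 ranged from 0 to 4 in HFD against LFD and from 0 to 3 in ob/ob against LFD, both highest without HFD replicate 1, where 18.7% and 0.591% of all genes passed. The number with an unadjusted p under 0.05 ranged from 3 (without LFD replicate 1, LFD replicate 3 or HFD replicate 2) to 6 in HFD against LFD, and from 1 to 2 (without HFD replicate 2 or ob/ob replicate 1) in ob/ob against HFD.

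The following differences changed sign, and the cause was not tested. In HFD against LFD, Rbp4 was -0.12 with quantile normalization and ranged from -0.0091 to 0.39 over the mice left out, and Lbp was -0.23 without the low-acinar mice. In ob/ob against LFD, Rbp4 ranged from -0.93 to 0.075 and was 0.075 without the low-acinar mice. In ob/ob against HFD, array weights gave -0.044 for Hp, -0.36 for Lcn2, -0.26 for Cp and -0.50 for Lbp, quantile normalization gave -0.0089 for Apoa2, and the fit without the low-acinar mice gave 0.24 for Saa3 and -0.14 for Apoa2. Over the mice left out, ob/ob minus HFD ranged from -0.013 to 0.65 for Hp, from -1.08 to 1.56 for Lcn2, from -0.063 to 0.35 for Cp, from -0.37 to 0.38 for Lbp and from -0.12 to 0.27 for Apoa2.

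With 2 or 3 mice a group and no counts, precision is limited by the number of mice, and low genes such as Apoa2 are shrunk by the transformation.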
